A study of Macaca fascicularis with 44 samples.

Results

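The genes described here are 9 targets of bone morphogenetic protein (BMP) signalling, ID1, ID2, ID3, ID4, SMAD6, SMAD7, MSX1, MSX2 and BAMBI, taken by symbol from the 21834 genes of the deposited count table. All 9 were found in it. RNA of single cells was measured in wild type cynomolgus monkey embryos (Macaca fascicularis), made by sperm injection into oocytes, selected as expanded blastocysts and cultured in vitro, and the labels say that extraembryonic tissue was removed by dissection before cells were separated. Classes named for extraembryonic lineages held most of the 3682 deposited cells, with 32.2% in EXMC, 15.4% in EVT, 14.9% in CTB, 12.9% in Extraembryonic Mesoderm and 3.01% in STB. The embryos carried no treatment and no transgene. They were taken at E16 (embryos E16-1 and E16-2) and, with 1 embryo each, at E18, E20, E21, E22, E23, E24 and E25, where E counts the days from fertilisation. The embryo was the replicate, so beyond E16 a day and its embryo cannot be told apart. Levels are given as CPM, the counts of a gene per 1000000 counts of the summed cells, within the 12 cell classes that the authors' annotation names. Gene lengths were not used, so levels are compared across classes and embryos for 1 gene at a time and never between genes.

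BMP ligands bind pairs of type I and type II receptors at the cell surface, which phosphorylate SMAD1, SMAD5 and SMAD9. These enter the nucleus with SMAD4 and switch on a small set of direct targets. The ID proteins bind to and block basic helix-loop-helix transcription factors. MSX1 and MSX2 are homeobox transcription factors. SMAD6, SMAD7 and the receptor decoy BAMBI act back on the pathway as inhibitors. In mammalian embryos BMP signalling is known for its part in primitive streak, amnion and extraembryonic mesoderm formation, and for the choice between surface and neural ectoderm.

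The 42 libraries used held 3533 cells, with totals of 4.39 to 30.6 M counts per library (median 11.8 M, M for 1000000) and a median of 110109 counts per cell. No cell name occurred in more than 1 library (0) and no profile was identical to another (0). Cells of EVT in E23 were shallow, with a median of 10865 counts per cell against 69688 to 200760 in the EVT cells of the other embryos with at least 10 such cells. The summed level of a class's own marker list was the highest of the 12 classes in EPI, PS and derivative, Endoderm, STB, EXMC and Blood cells. It had rank 3 of the 12 in Neural ectoderm (where LHX2, SIX3 and SOX1 were at 0 CPM) and in Mesoderm (where TBX6 and TCF15 were each at 0.16 CPM), and rank 2 in Non-neural ectoderm, CTB, EVT and Extraembryonic Mesoderm. The embryos E16-1, E16-2 and E23, whose library labels start with the codes 20210303 or 20210308, stood apart from the rest in several members, as given below. The classes may have been drawn from the same expression values, so p-values between classes are descriptive.

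ID1 had its highest pooled levels in the ectoderm and epiblast classes. Over all cells of a class ID1 stood at 478 CPM in Non-neural ectoderm, 412 CPM in EPI (the epiblast), 380 CPM in Neural ectoderm and 320 CPM in PS and derivative (primitive streak cells and what came from them). It stood at 259 CPM in Endoderm and 163 CPM in Mesoderm, and between 39.1 CPM (STB, the syncytiotrophoblast) and 98.8 CPM (EVT, the extravillous trophoblast) in the other 6 classes. Over embryos with at least 10 cells of the class, the mean was 463 ± 299 CPM (SD, n = 2) in Non-neural ectoderm, 418 ± 204 (n = 2) in PS and derivative and 203 ± 134 (n = 3) in EPI, so these neighbours in the order overlapped. The means of EXMC (extraembryonic mesenchyme; 44.8 ± 51.0, n = 8), Extraembryonic Mesoderm (55.1 ± 30.2, n = 6), STB (59.5 ± 78.9, n = 4) and CTB (cytotrophoblast; 65.1 ± 87.4, n = 8) also overlapped.

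ID2 was highest in the ectoderm classes, at 1170 CPM in Non-neural ectoderm and 1147 CPM in Neural ectoderm. Mesoderm followed with 631 CPM and STB with 549 CPM. EVT had the lowest pooled level, 34.5 CPM. The embryo means were 1186 ± 207 CPM (SD, n = 2) in Non-neural ectoderm, 505 ± 362 (n = 4) in STB, 494 ± 169 (n = 3) in Mesoderm and 48.5 ± 62.5 (n = 6) in EVT, so STB and Mesoderm did not differ beyond their spread.

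ID3 showed another order. It was highest in STB (1502 CPM) and Neural ectoderm (1154 CPM), followed by CTB (882 CPM), EVT (827 CPM) and PS and derivative (738 CPM), and lowest in Extraembryonic Mesoderm (135 CPM). Its spread among embryos of STB was wide, with a mean of 1180 ± 971 CPM (SD, n = 4), against 744 ± 197 (n = 8) in CTB and 613 ± 330 (n = 6) in EVT, which overlapped. ID4 was at or below 6.4 CPM in every class, with its highest pooled level in Neural ectoderm.

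BAMBI, which resembles a BMP receptor without its kinase, was highest in the mesenchymal classes. Its pooled level was 467 CPM in Extraembryonic Mesoderm and 440 CPM in EXMC, and the embryo means of 422 ± 83.9 (SD, n = 6) and 430 ± 88.7 (n = 8) did not differ beyond their spread. Non-neural ectoderm had 286 CPM, Mesoderm 185 CPM and PS and derivative 177 CPM. The 2 embryos of Non-neural ectoderm lay far apart, at 85.8 and 452 CPM (mean 269 ± 259, SD, n = 2), so its place in the order is uncertain. The lowest levels were in Neural ectoderm (46.8 CPM) and CTB (51.0 CPM). SMAD7 ranged from 0.86 CPM in Blood cells to 32.4 CPM in PS and derivative, and SMAD6 from 2.0 CPM in EVT to 7.8 CPM in Non-neural ectoderm.

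MSX1 was concentrated in PS and derivative, at 196 CPM, with 210.0 CPM in E16-1 and 142.0 CPM in E16-2. Every other class had at most 36.1 CPM (Neural ectoderm), and CTB had 0.47 CPM. MSX2 was highest in CTB (78.6 CPM), PS and derivative (64.4 CPM), STB (56.9 CPM) and Non-neural ectoderm (53.8 CPM), and lowest in Endoderm (4.97 CPM). Over embryos the order was partly another. MSX2 had means of 70.5 ± 11.4 CPM (SD, n = 2) in PS and derivative, 67.6 ± 19 (n = 4) in STB and 62.8 ± 32.3 (n = 8) in CTB, which overlapped. MSX1 had means of 176 ± 48.1 CPM (n = 2) in PS and derivative, 0.70 ± 1.07 (n = 8) in CTB and 0.55 ± 0.23 (n = 3) in EPI, the last 2 overlapping.

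**Figure D1:**
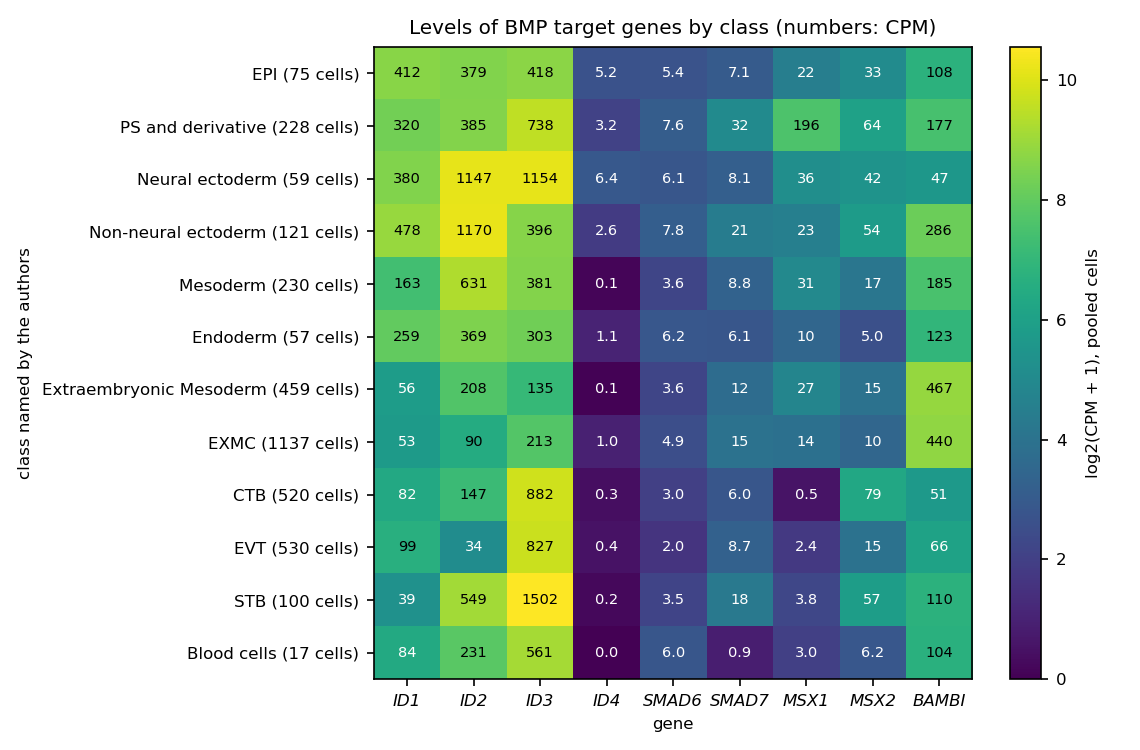
Pooled level of each BMP target gene (columns) in each class (rows), coloured by log2(CPM + 1) with the CPM printed in the cell. ID2 stood at 1170 CPM in Non-neural ectoderm and 34.5 CPM in EVT, MSX1 at 196 CPM in PS and derivative and 0.47 CPM in CTB, and BAMBI at 467 CPM in Extraembryonic Mesoderm.

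**Figure D2:**
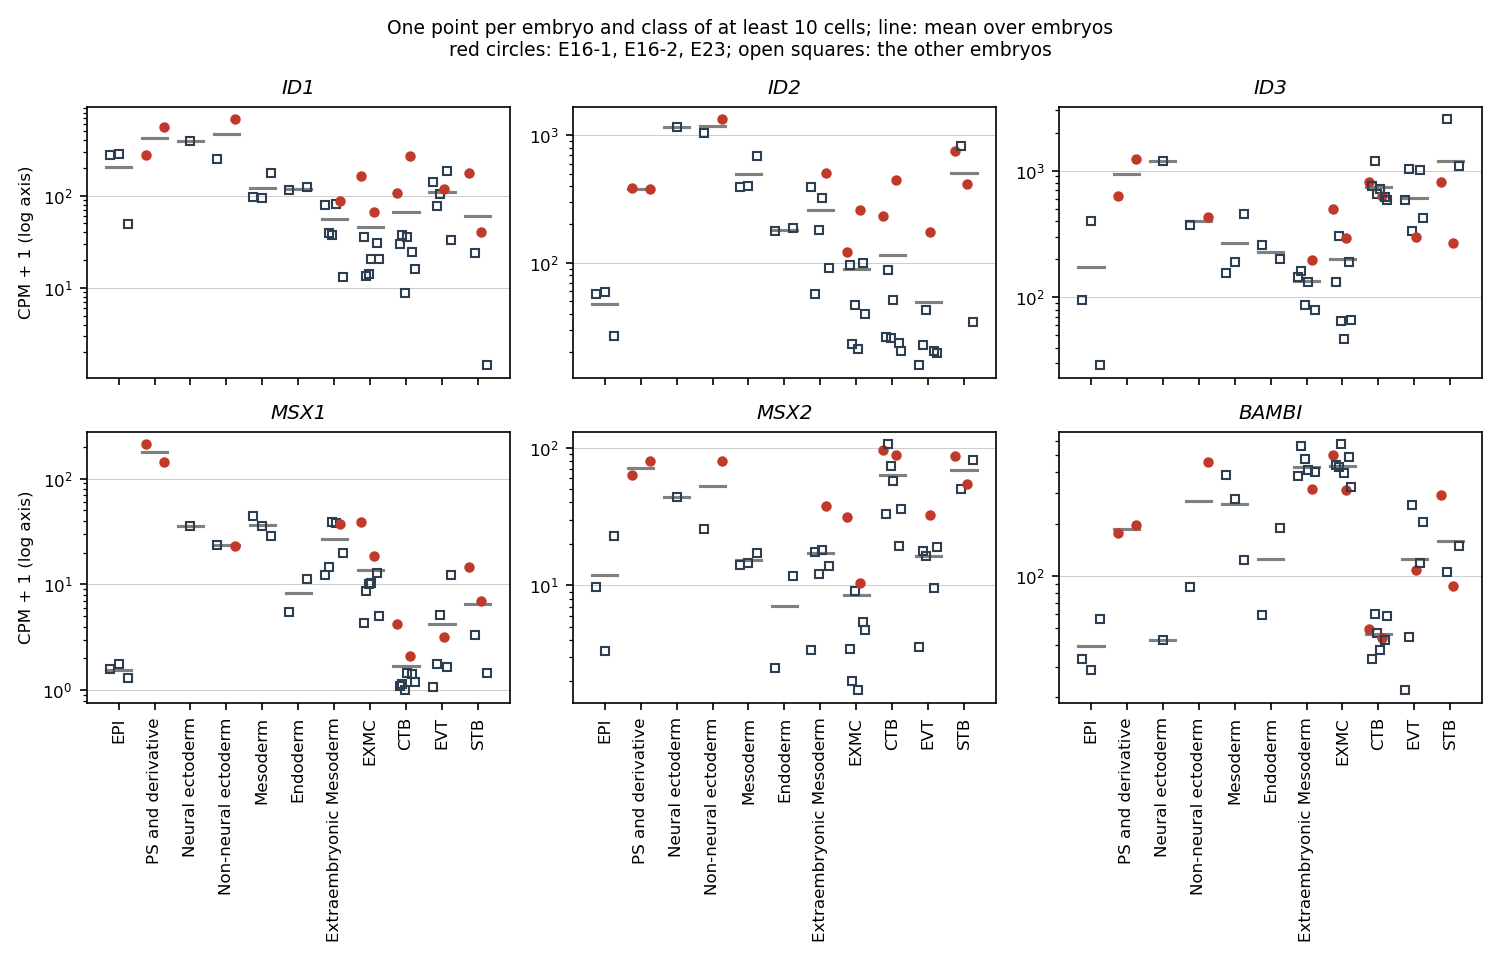
CPM + 1 on a log axis for 6 members by class, with 1 point per embryo with at least 10 cells of the class and a line at the mean. Filled red circles are E16-1, E16-2 and E23 and open squares the other embryos; in CTB and EXMC the red circles lie above all squares for ID1 and ID2.

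The target levels of cells labelled EPI differed with the library code among the 6 embryos with at least 5 such cells. In the embryos of other codes, E18 (23 cells), E21 (12 cells) and E25 (15 cells), ID2 stood at 56.3, 57.8 and 25.8 CPM, BAMBI at 32.2, 27.7 and 55.4 CPM and MSX1 at 0.58, 0.77 and 0.31 CPM. In the embryos of codes 20210303 and 20210308, E16-1 (8 cells), E16-2 (5 cells) and E23 (8 cells), ID2 stood at 510.3, 1129 and 1681 CPM, BAMBI at 142.0, 450.4 and 316 CPM and MSX1 at 79.8, 172 and 11.5 CPM. ID1 was 278, 282 and 47.9 CPM in the first set and 615, 745 and 1196 CPM in the second. ID3 was 93.8, 396 and 28 CPM against 984, 931 and 1076 CPM. The 2 sets of embryos did not overlap for ID1, ID2, ID3, MSX1, MSX2 or BAMBI, which is a description of small numbers of cells with no test. How many of all genes also separated the 2 sets was not counted, so the split cannot be called particular to the members. The 3 EPI cells of E22, an embryo of another code, did not keep to this split, with ID2 at 541.8 CPM, MSX1 at 41.1 CPM and MSX2 at 50.8 CPM, inside the range of the second set, and BAMBI at 67.7 CPM and ID3 at 229.8 CPM below it.

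Markers moved with this split. NANOG, a pluripotency factor, had 228, 300.3 and 140.0 CPM in E18, E21 and E25 and 33.5, 0 and 7.87 CPM in E16-1, E16-2 and E23. The summed EPI list (5 of its 6 genes in the table) had 657 to 1494 CPM in the first 3 embryos and 191 to 374 CPM in the other 3. The Non-neural ectoderm list, which holds TFAP2A, GATA3, ISL1, GABRP and TFAP2B, had 7.38 to 81.8 CPM against 258 to 671 CPM, next to 838 CPM in the Non-neural ectoderm class itself. That list is not particular to its class, with 841 CPM in STB, 396 CPM in EVT and 377 CPM in CTB. The Extraembryonic Mesoderm list split the same way, with 23.5, 53.1 and 65.6 CPM in E18, E21 and E25 and 434, 694 and 418 CPM in E16-1, E16-2 and E23. Its sum was 663 CPM in its own class and higher, at 972 CPM, in PS and derivative. The PS and derivative list had 99.2 and 152 CPM in E16-1 and E16-2, 0 CPM in E23 and at most 16.2 CPM in the other 3. The EXMC list had 6384 CPM in the EPI cells of E25, 1150 CPM in E21 and 417 CPM in E18, and 74.1, 522 and 629 CPM in those of E16-1, E16-2 and E23, against 32880 CPM in the EXMC class. TFAP2A, GATA3 and HAND1 among these markers are also listed below as BMP-responsive, and BMP4 as a ligand, so these lists are not independent of the pathway. The part of these marker levels in the target levels was not tested. All 75 EPI cells belong to 1 cluster of the authors.

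**Figure D3:**
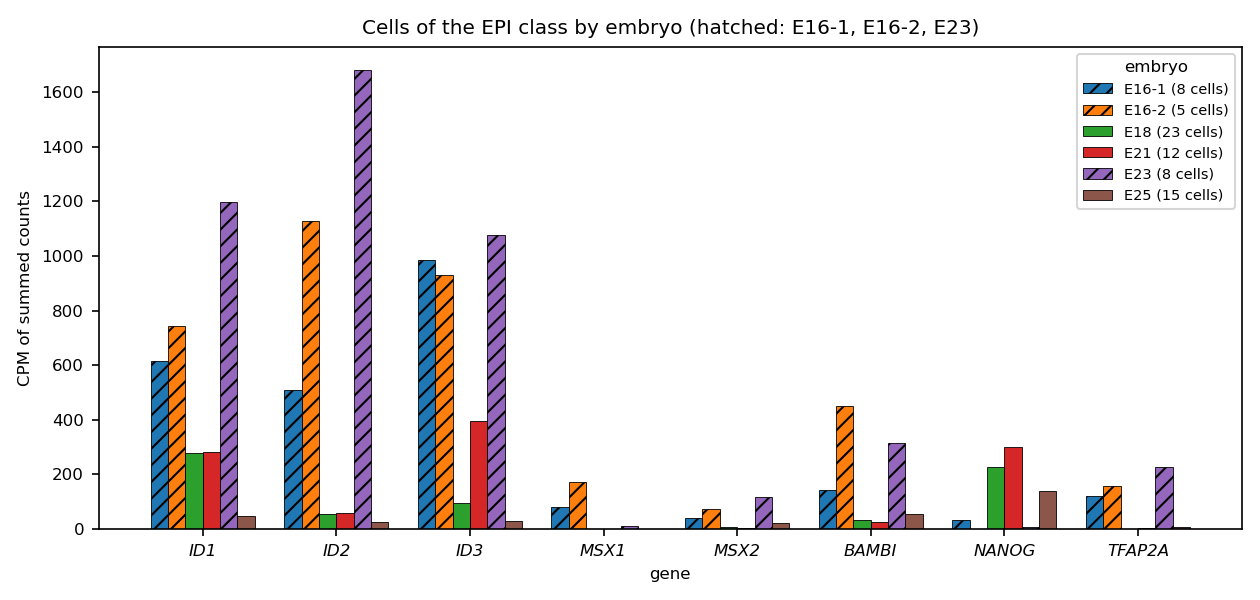
CPM of 6 members, of NANOG and of TFAP2A in the summed EPI cells of each embryo with at least 5 such cells (bars; hatched for E16-1, E16-2 and E23). ID2 reached 510.3 to 1681 CPM in the hatched bars, where NANOG was at most 33.5 CPM, and 25.8 to 57.8 CPM in the others.

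Only E18, E21 and E25 had the 10 EPI cells needed for the test, in which each class was set against the mean of the other classes with the embryo as a block (differences are log2 ± SE). There EPI was higher in ID1 (1.89 ± 0.45, edgeR adjusted p = 0.00392) and lower in MSX1 (-3.48 ± 0.98, adjusted p = 0.0146) and BAMBI (-2.30 ± 0.48, adjusted p = 0.000884). This was 3 of 9 members, beside 12.1% of all 15131 genes tested, and the median difference was -0.83 over the members and -0.01 over all genes. ID2 was not called (-1.35 ± 0.64, adjusted p = 0.198). With sums of at least 5 cells, which let in the EPI cells of E16-1, E16-2 and E23, MSX1 (-0.50, adjusted p = 0.800) and BAMBI (-0.54, adjusted p = 0.579) were no longer called and ID2 turned to 0.31. Without E21 the adjusted p was 0.101 for ID1 (1.5; range over its alternatives 0.000229 to 0.101) and 0.0691 for MSX1, and without the embryos of codes 20210303 and 20210308 it was 0.0553 for MSX1. A class with too few embryos left also dropped out of the mean of the other classes, as Endoderm did without E21.

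Endoderm cells, with APOA1 and TTR among their markers, held moderate levels of the ID genes that differed 1 embryo from another. ID1 was 114 CPM in E18 (26 cells), 122 CPM in E21 (15 cells), 862 CPM in E22 (8 cells) and 20.1 CPM in E25 (5 cells). ID2 was 176, 187, 1133 and 10.0 CPM and ID3 was 256, 201 and 668 CPM in E18, E21 and E22 and 73.7 CPM in E25. E18 and E21 lay close together, while E22 was the highest and E25 the lowest for all 3 genes. BAMBI was 58.3, 189, 185 and 87.0 CPM in the same order. APOA1 was high in all 4, at 14134, 7305, 9607 and 2892 CPM, and the EXMC list was at 622, 5070, 671 and 5979 CPM.

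Only E18 and E21 entered the test of Endoderm. SMAD7 was lower there than in the mean of the other classes (-2.65 ± 0.83, adjusted p = 0.0306), with 2.97 and 0.51 CPM in the 2 embryos. It was the only member called, 1 of 9, beside 6.36% of all genes, and the median was -0.37 over the members and -0.07 over all genes. With sums of at least 5 cells, where E22 (25.3 CPM) enters, the SMAD7 difference was -0.98 (adjusted p = 0.536), and without E20 the adjusted p was 0.05, just past the threshold (range over its alternatives 0.00878 to 0.536). Against EPI, Endoderm had 0 of 9 members called by edgeR, beside 4.56% of all genes, with 2 at an unadjusted p under 0.05 and 1 called by DESeq2. There ID2 was 1.54 (95% interval -0.06 to 3.14) and ID1 -1.08 (-2.50 to 0.33), intervals that hold 0 and also differences of more than 2 on the log2 scale. Of the other pathway genes CER1, a secreted antagonist of BMP, Nodal and WNT ligands, reached 1302 CPM in the pooled Endoderm cells (2771 CPM in E18 and 431 CPM in E21) and was higher than in the other classes (8.17 ± 0.83, adjusted p = 6.54e-09). BMP2, a ligand, was higher too (2.22 ± 0.68, adjusted p = 0.0274; 191 CPM), while the receptor ACVRL1 was lower (-3.94 ± 1.10, adjusted p = 0.0138; 0.93 CPM from 6 counts).

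STB, the hormone-making syncytium, combined high ID3 with low ID1 in the pooled cells, but not in every embryo. ID3 was 818 CPM in E16-2 (12 cells), 2543 CPM in E20 (28 cells), 269 CPM in E23 (30 cells) and 1091 CPM in E25 (11 cells). ID1 was 176, 23, 39.1 and 0.44 CPM in the same embryos, and ID2 was 749, 826, 414 and 33.2 CPM. ID2 was thus high in 3 embryos and low in E25. ID3 in E23 lay below the lowest embryo of CTB (580 CPM) and of EVT (297 CPM). ID1 in E16-2 lay above the CTB (107 CPM) and EXMC (163 CPM) cells of that embryo. The small STB groups of E18 (7 cells) and E24 (7 cells) had ID2 at 1.17 and 9.38 CPM and ID3 at 221 and 1034 CPM. The STB marker list, which holds the hormone subunit CGA, summed to between 29031 and 88866 CPM in all 6 of these embryos. The STB cells of E16-2 also held 273 CPM of the PS and derivative list, against 0 to 0.52 CPM in the other 5 embryos, and the EXMC list ranged from 432 to 7984 CPM in the 6 embryos; their part in the result was not tested.

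Against the mean of the other classes STB was lower in ID1 (-2.08 ± 0.52, adjusted p = 0.00586) and higher in ID3 (1.64 ± 0.43, adjusted p = 0.00934) and MSX2 (1.41 ± 0.43, adjusted p = 0.0264). This was 3 of 9 members, beside 18% of all genes, with a median of 0.27 over the members and -0.12 over all genes. ID2 was not called (1.33, adjusted p = 0.125) and turned to -0.05 without E20, and was called at 2.24 (adjusted p = 0.0373) without the embryos of codes 20210303 and 20210308, and also without E22, E23 or E25 (0.0389 to 0.0493). Without E22, E23 or the embryos of those codes, Non-neural ectoderm, the class highest in ID2, left the mean of the other classes. E22 itself had too few STB cells for a sum. Those fits thus set STB against another mean, and the part of that in the calls was not tested. The call of ID3 was lost without E20 (adjusted p = 0.131) and without E25 (0.179; range over its alternatives 0.000114 to 0.179). That of MSX2 was lost without E20 (0.0560), E21 (0.0823) and E25 (0.203), and at sums of at least 20 cells, which leave E20 and E23, none of the 3 was called.

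Within the trophoblast CTB was compared directly with EVT and with STB, and EVT with STB was not. CTB, the proliferative layer, was lower than the other classes in MSX1 (-4.44 ± 0.57, adjusted p = 5.96e-07), BAMBI (-1.86 ± 0.29, adjusted p = 1.72e-05), ID2 (-1.42 ± 0.40, adjusted p = 0.0159) and ID1 (-1.20 ± 0.35, adjusted p = 0.0196), and higher in MSX2 (1.84 ± 0.32, adjusted p = 7.42e-05) and ID3 (1.12 ± 0.30, adjusted p = 0.00974). These 6 of 9 members stand beside 22.7% of all genes, with a median of -1.20 over the members and 0.01 over all genes. BAMBI was even among the 8 embryos, from 32.3 to 59.6 CPM, and MSX1 was at most 3.20 CPM. MSX1 rested on few counts in CTB and EPI, so its fitted differences there depend on the prior count and are no bounds. The calls of ID1, ID2 and ID3 were each lost without E18 (adjusted p = 0.0811, 0.0593 and 0.0775). ID1 and ID2 were also lost without E21 (0.128 and 0.0859) or E22 (0.129 and 0.0852), and ID1 without E24 (0.0552). Endoderm left the mean of the other classes without E18 or E21, and Non-neural ectoderm without E22, so the contrast itself changed there.

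EVT, the invasive trophoblast, was lower than the other classes in ID2 (-2.32 ± 0.49, adjusted p = 0.00109), the only member of 9 called, beside 14.1% of all genes, with a median of -0.44 over the members and 0.08 over all genes. ID2 in EVT was between 14.7 and 42 CPM in 5 embryos and 174 CPM in E23. Set directly against CTB, EVT was higher in ID1 (1.63, adjusted p = 0.0195), MSX1 (2.87, adjusted p = 0.00600) and BAMBI (1.28, adjusted p = 0.0213) and lower in MSX2 (-2.01, adjusted p = 0.00628), which is 4 of 9 beside 11% of all genes. MSX1 was lost without E25, the embryo with 11.4 CPM in EVT (1.57, adjusted p = 0.0904). ID1 was lost without E18 (0.0802), E21 (0.107) or E24 (0.0861), and BAMBI without E21 (0.148), E24 (0.0565) or E25 (0.0895) and at other cell minimums (0.108 and 0.111). In library sums neither ID1 (0.0977) nor BAMBI (0.463) was called. Among the authors' clusters of EVT, BAMBI was 282 CPM in cluster 18 and 102 CPM in cluster 7. It was 16.8, 45.5 and 33.6 CPM in clusters 13, 19 and 23, next to 42.3 to 53.5 CPM in the clusters of CTB. The higher BAMBI of EVT thus did not hold in all of its clusters. All 84 cells of cluster 19 were from E20, and 130 of the 192 cells of cluster 7 from E23, where EVT cells were shallow. Cluster, embryo and depth therefore cannot be fully told apart here. STB was higher than CTB in ID2 (2.48, adjusted p = 0.00578), MSX1 (2.91, adjusted p = 0.00587) and BAMBI (1.58, adjusted p = 0.0112), 3 of 9 beside 13.5% of all genes. Without E20 the difference was 1.30 for ID2 (adjusted p = 0.145) and 2.51 for MSX1 (0.0616), and without E16-2 it was 1.24 for BAMBI (0.0795). BAMBI was also lost at sums of at least 5 cells (0.71, adjusted p = 0.536), which let in E18 and E24. Of the 7 calls in these 2 comparisons, MSX2 in EVT against CTB was the one kept in every setting run.

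In PS and derivative, MSX1 was 2.21 ± 1.05 above the mean of the other classes without reaching the threshold (adjusted p = 0.198), and 0 of 9 members were called by edgeR, beside 0.82% of all genes, with 1 at an unadjusted p under 0.05 and 0 called by DESeq2. With the embryo as a block this contrast rests on E16-2, because E16-1 had no other class with 10 cells. MSX1 was called without E25 (2.39, adjusted p = 0.0483) and in the fit of library sums (2.73, adjusted p = 0.0313). Set against EPI it was higher in PS and derivative (5.12 ± 1.43, adjusted p = 0.0263), 1 of 9 members beside 0.555% of all genes. No embryo held 10 cells of both classes, so this difference compares E16-2 with E18, E21 and E25 through the other classes they share. It was lost without E23 (adjusted p = 0.0633) or E21 (0.0684), and with sums of at least 5 cells, where the EPI cells of E16-1, E16-2 and E23 enter, it was 1.21 (adjusted p = 0.617).

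Mesoderm was higher than the other classes in MSX1 (3.25 ± 0.57, adjusted p = 0.000114) and ID2 (1.83 ± 0.52, adjusted p = 0.0156), 2 of 9 members beside 5.51% of all genes, with a median of 0.55 over the members and 0.03 over all genes. MSX1 was 43.2, 34.4 and 27.8 CPM in E18, E21 and E22, and ID2 was 391, 401 and 689 CPM, with the highest ID2 in E22. ID2 was lost without E21 (adjusted p = 0.0755), and neither was called in library sums (0.0907 for MSX1 and 0.0671 for ID2), nor ID2 at sums of at least 20 cells (0.0798). Against Extraembryonic Mesoderm 0 of 9 members were called by edgeR (1 at an unadjusted p under 0.05, 0 by DESeq2), beside 3.48% of all genes, with ID1 at 1.17, ID2 at 1.10 and ID3 at 1.05. In library sums ID3 was called (1.72, adjusted p = 0.000424).

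EXMC and Extraembryonic Mesoderm were both higher than the other classes in BAMBI, by 1.80 ± 0.24 (adjusted p = 1.75e-06) and 1.74 ± 0.27 (adjusted p = 2.11e-05). Both were lower in ID3 (-1.21, adjusted p = 0.0180, and -1.60, adjusted p = 0.00582). EXMC was also lower in ID1 (-1.59, adjusted p = 0.00188) and MSX2 (-1.86, adjusted p = 0.000766), and Extraembryonic Mesoderm was higher in MSX1 (2.24, adjusted p = 0.000264). These are 4 of 9 members in EXMC beside 20.8% of all genes, with a median of 0.45 over the members and 0.14 over all genes, and 3 of 9 in Extraembryonic Mesoderm beside 13.8%, with medians of 0.13 and 0.10. BAMBI was between 311 and 574 CPM in all 8 embryos of EXMC and between 318 and 560 CPM in all 6 of Extraembryonic Mesoderm. The call of ID3 in EXMC was lost without E22 (adjusted p = 0.0882). Between these 2 classes 0 of 9 members were called by edgeR (4 at an unadjusted p under 0.05, 2 by DESeq2), beside 3.15% of all genes, with BAMBI at -0.05 (95% interval -0.71 to 0.61). ID2 came close (1.59, adjusted p = 0.0551) and was called in 8 alternatives, among them DESeq2 (1.65, adjusted p = 0.0194) and the fits without E16-1 (0.0498), E20 (0.0155), E23 (0.0496) or E24 (0.0310).

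**Figure D4:**
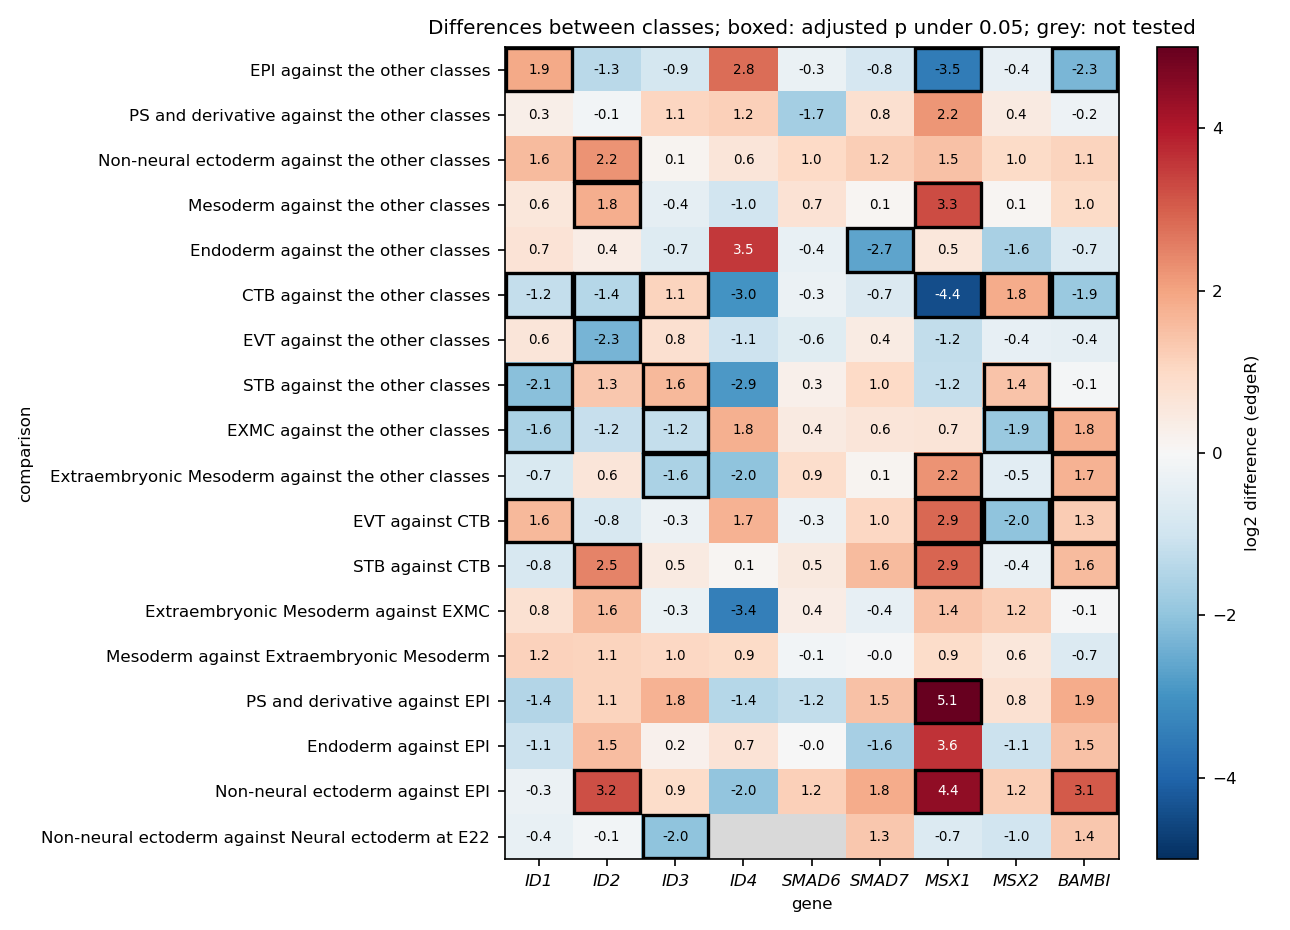
Log2 difference of each member (columns) in each class comparison (rows), red for higher and blue for lower in the class named first; boxes mark an edgeR adjusted p under 0.05 and grey cells were not tested. MSX1 was -4.4 in CTB and 5.1 in PS and derivative against EPI, and BAMBI was 1.8 in EXMC and 1.7 in Extraembryonic Mesoderm.

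Non-neural ectoderm was higher in ID2 than the other classes (2.24 ± 0.65, adjusted p = 0.0187), 1 of 9 members beside 2.65% of all genes, with a median of 1.11 over the members and 0.06 over all genes. The 2 embryos had 1040 CPM (E22) and 1333 CPM (E23). ID1 was 1.56 higher without passing (adjusted p = 0.0648), but was called without E16-1, E16-2, E21 or E25 (adjusted p from 0.0398 to 0.0490). ID2 was lost at sums of at least 5 cells (adjusted p = 0.257) and at least 20 cells (0.146). Against EPI, Non-neural ectoderm was higher in BAMBI (3.08, adjusted p = 0.00224), MSX1 (4.44, adjusted p = 0.0202) and ID2 (3.23, adjusted p = 0.0285), 3 of 9 beside 2.7% of all genes. No embryo had 10 cells of both classes. BAMBI differed widely between the 2 embryos of Non-neural ectoderm, at 85.8 and 452 CPM. Without E21 the adjusted p was 0.0721 for MSX1 and 0.0962 for ID2, without E18 0.0883 and without E25 0.0612 for ID2, and with sums of at least 5 cells all 3 were lost (0.507 to 0.666).

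Both ectoderm classes occurred together in the embryo of E22, and 5 of its libraries held at least 5 cells of each. ID3 was 591, 257, 1937, 1181 and 1241 CPM in the Neural ectoderm cells of these libraries and 100.4, 194, 199.8, 226 and 420 CPM in their Non-neural ectoderm cells. It was higher in Neural ectoderm in all 5 libraries. The difference, Non-neural minus Neural, was -2.01 ± 0.31 (library as a block, adjusted p = 0.00143), and it was called in all 10 alternatives. A sixth library, left out for its 3 Neural ectoderm cells, had 1395 CPM in those and 1240 CPM in its Non-neural ectoderm cells. It was the only one of the 7 members tested that was called, beside 2.91% of all 7536 genes. ID4 and SMAD6 had too few counts for this comparison. ID2 did not separate the classes, with 557 to 1373 CPM in Neural and 438 to 1463 CPM in Non-neural ectoderm (-0.14, 95% interval -0.57 to 0.28), nor did ID1 (-0.35, -0.89 to 0.18). BAMBI was higher in Non-neural ectoderm in all 5 libraries, at 50.1 to 119 CPM against 2.07 to 81.7 CPM, without passing (1.36, adjusted p = 0.211). Libraries of 1 embryo share that embryo, so this comparison describes E22. Among the pathway genes, the ligand BMP4 (2.00 ± 0.33, adjusted p = 0.00214) and the transcription factors GATA3 (2.16, adjusted p = 0.00502), TFAP2A (2.18, adjusted p = 0.0147) and HEY1 (3.48, adjusted p = 0.0299) were higher in Non-neural ectoderm. TFAP2A and GATA3 are also markers of that class.

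Stage showed no slope that passed. Over the summed cells of all 9 embryos, 0 of 9 members and 0% of 15835 genes had an edgeR adjusted p under 0.05 for a slope of day, with 1543 genes at an unadjusted p under 0.05 and 196 called by DESeq2. The steepest member was MSX1, at -0.46 ± 0.12 log2 per day (adjusted p = 0.388), from 192 and 47.4 CPM in E16-1 and E16-2 to 29.9 CPM in E22 and 3.34 to 15.0 CPM in the other 6 embryos. PS and derivative cells, the class with high MSX1, came almost only from the E16 embryos, and fewer cells of a type and less RNA per cell cannot be told apart in such sums. DESeq2 called MSX1 (-0.46, adjusted p = 0.0191, beside 1.24% of all genes), and so did library sums (-0.43, adjusted p = 3.13e-05, beside 18.5% of all genes), also with library code as a term (-0.33, adjusted p = 0.0127, beside 6.4%). Libraries of 1 embryo are not independent. Without the 2 E16 embryos the slope of MSX1 was 0.005, so it rests on them. ID1 (-0.15) and ID2 (-0.05) likewise turned to 0.05 and 0.07 without the E16 embryos.

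Within single classes no member passed either. In EXMC 0 of 9 members were called (0% of 13686 genes, 429 at an unadjusted p under 0.05 and 17 called by DESeq2), in CTB 0 of the 7 tested (0% of 11801, 791 and 62), in EVT 0 of 8 (0% of 11959, 767 and 107) and in Extraembryonic Mesoderm 0 of 8 (0.0161% of 12399, 898 and 76). ID1 in EXMC had a slope of -0.22 ± 0.09 (unadjusted p = 0.0294, adjusted p = 1), which turned to 0.06 without E16-2. In EVT, MSX1 had 0.69 ± 0.29 (adjusted p = 0.773) and BAMBI 0.33 ± 0.16 (adjusted p = 0.781). BAMBI in EVT was 20.9, 43.4, 254, 108, 118 and 203 CPM at E18, E20, E21, E23, E24 and E25, and was called in library sums (0.46, adjusted p = 0.00409, beside 6.88% of all genes). MSX2 in Extraembryonic Mesoderm had 0.39 ± 0.20 (adjusted p = 0.713).

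The ID levels of some classes varied widely from embryo to embryo. ID1 in CTB was 268 CPM in E23 and 107 CPM in E16-2, and 7.86 to 36.2 CPM in the other 6 embryos. ID2 in CTB was 448 and 233 CPM in those 2 embryos and 19.5 to 86.1 CPM in the others. In EXMC ID1 was 163 CPM in E16-2 and 66.0 CPM in E23 against 12.3 to 34.5 CPM, and ID2 was 120.3 and 260 CPM (E23) against 20.2 to 99.3 CPM. E16-2 and E23 are 7 days apart and lay above all other embryos for both genes in both classes. The share of all genes with such a split was not counted. The libraries of E16-2 and E23 carry the codes 20210303 or 20210308, and E16-2 holds both codes while E23 does not. No other embryo but E16-1 has either code, so the code and the embryos cannot be told apart.

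Other members followed that split in part. In EXMC the 2 embryos also lay above the others in MSX1 (37.7 and 17.4 CPM against 3.29 to 11.9 CPM), MSX2 (30.4 and 9.46 CPM against 0.72 to 8.13 CPM) and SMAD6 (8.06 and 5.99 CPM against 1.01 to 5.08 CPM), and in CTB in MSX1 (3.20 and 1.11 CPM against 0 to 0.46 CPM) and ID4 (0.25 and 1.39 CPM against 0 to 0.0647 CPM). ID3, SMAD7 and BAMBI did not separate the 2 embryos from the rest in either class. In CTB BAMBI was 48.2 and 42.6 CPM in E16-2 and E23, inside the range of 32.3 to 59.6 CPM of all 8 embryos. In Extraembryonic Mesoderm ID1 was 85.6 CPM in E23 next to 80.2 CPM in E22 and 78.0 CPM in E18. E22 had high ID1 in its ectoderm (389 CPM in Neural and 252 CPM in Non-neural ectoderm) and low ID1 in EXMC (19.5 CPM) and CTB (34.4 CPM). Where 1 embryo had 2 codes, ID1 in EXMC was 159 and 170.2 CPM in E16-2, 4.55 and 25.9 CPM in E21 and 18.5 and 27.1 CPM in E25, each with at least 49 cells. Other values differed between the codes of 1 embryo. In E16-2 ID1 in PS and derivative was 367 and 742 CPM (26 and 11 cells) and MSX1 in EXMC 52.2 and 13.2 CPM, and in E25 ID3 in EXMC was 68.7 and 29.9 CPM and ID2 in EVT 10.5 and 62.1 CPM (38 and 10 cells).

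**Figure D5:**
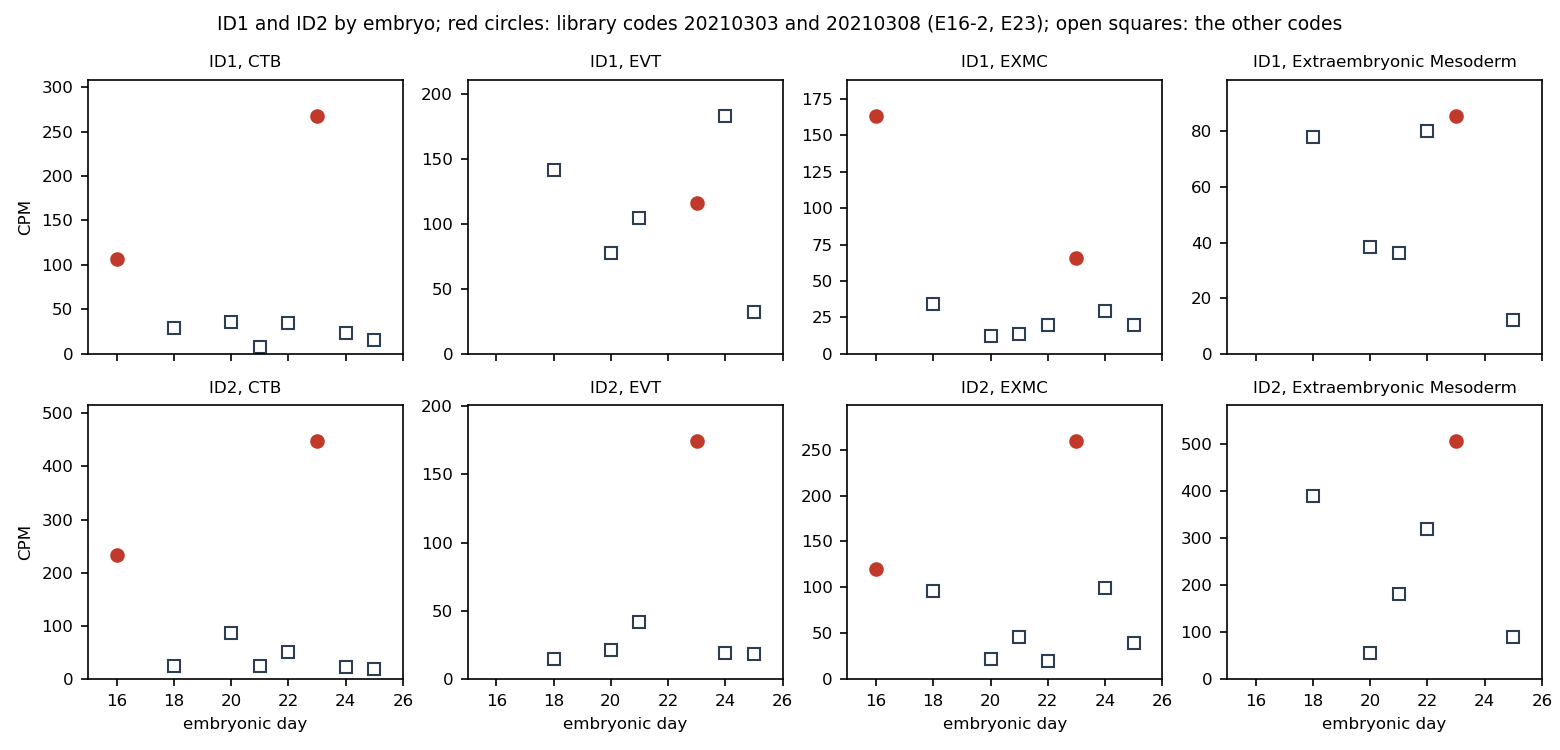
CPM of ID1 (top) and ID2 (bottom) against embryonic day in 4 classes, 1 point per embryo with at least 10 cells. Red circles are E16-2 and E23 (library codes 20210303 or 20210308), open squares the other embryos. In CTB ID1 was 107 and 268 CPM in the red circles and at most 36.2 CPM in the squares.

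The lists of other pathway genes were counted against the share of all genes called in the same comparison, in either direction. Of 6 ligands tested, 3 were higher and 0 lower in EXMC (beside 20.8% of all genes), 3 higher and 1 lower in Extraembryonic Mesoderm (13.8%), 2 higher in Mesoderm (5.51%), 1 higher each in Non-neural ectoderm (2.65%) and Endoderm (6.36%), 3 lower in CTB (22.7%), 1 lower in STB (18%), and 0 were called in EPI, PS and derivative and EVT. BMP5 was higher than the other classes in EXMC (3.27 ± 0.36, adjusted p = 3.77e-08; 321 CPM), as was BMP2 (3.06 ± 0.40, adjusted p = 1.15e-06; 334 CPM). BMP4 had its highest embryo means in Mesoderm (251 ± 80.7 CPM, SD, n = 3) and PS and derivative (247 ± 114 CPM, n = 2), which overlapped, and was called in Mesoderm (2.78 ± 0.42, adjusted p = 9.41e-06). In CTB BMP2 was lower (-3.34 ± 0.50, adjusted p = 8.77e-06; 5.83 CPM).

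Of 8 receptors, 5 were higher in EXMC (beside 20.8% of all genes), 3 in EVT (14.1%), 2 in STB (18%) and 1 in Extraembryonic Mesoderm (13.8%), while 3 were lower in CTB (22.7%), 2 in EPI (12.1%), 2 in Mesoderm (5.51%) and 1 in Endoderm (6.36%). The 2 in STB were ENG (4.59 ± 0.39, adjusted p = 1.55e-10; 209 CPM) and ACVRL1 (4.65 ± 0.45, adjusted p = 2.44e-09; 78.5 CPM), the co-receptor and type I receptor best known from vessels. Of 12 secreted antagonists tested, 5 were higher in Extraembryonic Mesoderm, 3 in EXMC, 2 in EVT, 2 in STB and 1 in Endoderm, 3 were higher and 2 lower in Mesoderm, 4 were lower in CTB and 1 in EPI. Against the shares of all genes just given, the antagonist counts in EXMC, EVT, STB, Endoderm and EPI are near the background or below it. So are the receptor count in Extraembryonic Mesoderm and the ligand count in STB. FSTL3, which binds activin and BMP ligands, was higher in EVT (3.55 ± 0.38, adjusted p = 1.66e-08; 382 CPM). In STB it was 48 CPM in E16-2, 724 CPM in E20, 539 CPM in E23 and 1344 CPM in E25, so E16-2 stood far below the others. FST had embryo means of 361 ± 312 CPM (SD, n = 3) in Mesoderm, 306 ± 127 (n = 6) in Extraembryonic Mesoderm and 195 ± 148 (n = 6) in EVT, which overlapped, and in CTB it was lower than in the other classes (-3.35 ± 0.47, adjusted p = 2.80e-06; 9.17 CPM). NOG was at most 5.2 CPM in any class.

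Of 8 other BMP-responsive transcription factors tested, 7 were higher in STB (beside 18% of all genes), 5 in EVT (14.1%) and 4 in Non-neural ectoderm (2.65%). In CTB 5 were higher and 3 lower (22.7%), in Extraembryonic Mesoderm 1 was higher and 4 lower (13.8%), and in Mesoderm 1 was higher and 2 lower (5.51%). In EPI 6 were lower (12.1%), in EXMC 3 (20.8%) and in Endoderm 1 (6.36%). GATA2 (4.66 ± 0.35, adjusted p = 9.03e-12) and TFAP2A (4.27 ± 0.40, adjusted p = 1.54e-09) were among the 7 in STB. HAND1, a mesoderm and trophoblast factor, was higher in Mesoderm (3.58 ± 0.52, adjusted p = 5.47e-06) and Extraembryonic Mesoderm (2.85 ± 0.41, adjusted p = 4.28e-06) and lower in EPI (-2.86 ± 0.77, adjusted p = 0.0101). TFAP2A, GATA3, TBX3, HAND1 and BMP4 also stand in the marker lists of classes, so their class differences are not independent of the class names.

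The members did not vary as a group. Across 45 sums of an embryo and a class, Pearson's r of log2(CPM + 1) was 0.66 between MSX1 and BAMBI, 0.63 between ID2 and MSX1, 0.57 between ID3 and MSX2 and 0.55 between ID1 and ID2, and -0.46 between ID3 and BAMBI. The sums share embryos and libraries, and these values are descriptions. Among 7736 genes, the closest to BAMBI were HAND2 (0.890), LRP11 (0.890) and AXL (0.886), and the closest to MSX1 were HAND1 (0.888), TCF4 (0.842) and LEF1 (0.841). ID3 was closest to MOB3B (0.867), CDK2 (0.797) and PCLAF (0.789). ID2 was closest to PBRM1 (0.775), MSX2 to C1orf115 (0.754), ID1 to HMGB1 (0.727) and SMAD7 to UBE3A (0.580), and ID4 and SMAD6 were too low for this measure.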

How the data were processed

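The assay was RNA sequencing of single cells, in 44 libraries. Per the submitters' processing notes, reads were handled with cutadapt 1.15, STAR 2.6.0a and HTSeq 0.10.0. The authors deposited raw counts of 21834 genes in 3682 cells, with no normalization, and an annotation with class, cluster and embryo of each cell. Not given in the sources used here were the build of the genome, the use of molecular identifiers and how doublets were handled. Doublets were not called here. The column sums equal the annotated total in all 3682 cells, and 0 columns of counts were left unused. Libraries 26 and 27 (149 cells) carry conflicting day labels and entered only 1 alternative.

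The embryo served as the replicate, with counts added up over the cells of each class in it. The quasi-likelihood F test of edgeR 4.0.16 (R 4.3.3; TMM scaling after filterByExpr) compared classes on sums of at least 10 cells in classes with at least 2 embryos, with the embryo as a block. Neural ectoderm and Blood cells had too few embryos. The SE is the absolute log2 difference over the root of F, and 95% intervals are normal intervals from that SE. Each of 10 classes was set against the mean of the others, and 7 pairs of classes were tested in the same fit. P-values were adjusted by Benjamini-Hochberg over all genes and contrasts of each family, with 0.05 as the threshold. Ectoderm at E22 was compared in library sums of at least 5 cells with the library as a block. Slopes of day used sums per embryo, in classes with at least 5 embryos. CPM are counts over the total of the summed cells, without TMM. The fits were tested on simulated data. Nothing in the labels says that libraries of 1 embryo came from separate parts of it, so p-values of library sums may measure technical spread.

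Alternatives were library sums, no filter, RLE normalization, DESeq2 1.42.0, limma 3.58.1 (voom), other cell minimums, libraries 26 and 27 kept, each embryo or library left out, a library code term, and 2 chosen after seeing the data (without the embryos of codes 20210303 and 20210308, and the mean of CPM of single cells). All members are named. Of the pathway lists, at most 4 called genes with the largest differences and at least 10 CPM per comparison were named, and the class where a ligand, receptor or antagonist was highest. Likeness is the highest Pearson r among genes with a mean of at least 10 CPM. The members and lists were chosen with earlier results of these data known. Of the listed genes, BMP8B, GREM1, POU5F1, KRT8, KRT18, PSG3, HBA and HBG1 were not found by symbol in the table. Genes under the filter, such as ATOH8 (2 counts), were not tested. Reads shared between paralogs could be split by the authors' counting. No genome or sequence was used here.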

Additional observations from a re-analysis of the deposited data

Results flagged for a closer look

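In groups of 4 to 8 embryos, 13 of the 45 sets of levels held an embryo far from the others by Dixon's test at the 95% level, which chance gives in about 1 in 20 groups of independent, normally spread values. The CPM are skewed, some are near 0 and the 9 genes share the same sums, so that rate is no fair measure for these 13. Of these 13, 11 were in E16-2 or E23, which with E16-1 carry the library codes 20210303 or 20210308, and all 13 were the highest value of their group. The share of all genes flagged in the same sums and embryos was not counted, so this cannot be called particular to the members. In E23, ID1 in CTB was 268 CPM (next 107), ID2 in EVT 174 CPM (next 42), ID2 in EXMC 260 CPM (next 120.3), ID4 in CTB 1.39 CPM (next 0.25) and ID4 in EVT 4.32 CPM (next 0.72). In E16-2, ID1 in EXMC was 163 CPM (next 66.0), MSX1 in EXMC 37.7 CPM (next 17.4), MSX2 in EXMC 30.4 CPM (next 9.46), MSX1 in CTB 3.20 CPM (next 1.11), SMAD6 in CTB 8.11 CPM (next 3.69) and ID4 in STB 1.20 CPM (next 0). The other 2 were ID3 in CTB of E20, at 1194 CPM (next 812), and MSX1 in EVT of E25, at 11.4 CPM (next 4.10). The EVT cells of E23 were shallow (median 10865 counts per cell), which stands beside their ID2 and ID4 values.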

How the results depend on the processing

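Of the 36 calls of a member, 12 were kept in every setting run for them, 24 were lost in at least 1, and 0 reversed. The number of members called changed as follows. Library sums with a library block gave 1 in PS and derivative (0 in the embryo sums), 3 in Non-neural ectoderm (1), 0 in Mesoderm (2), 4 in EVT (1), 1 in Extraembryonic Mesoderm against EXMC (0) and 2 in Mesoderm against Extraembryonic Mesoderm (0). Sums of at least 5 cells gave 0 in Non-neural ectoderm (1), 0 in Endoderm (1), 3 in CTB (6), 1 in STB against CTB (3), 0 in PS and derivative against EPI (1) and 0 in Non-neural ectoderm against EPI (3). Sums of at least 20 cells gave 1 in Mesoderm (2), 3 in EVT (1) and 0 in STB (3). Without the embryos of codes 20210303 and 20210308, Endoderm had 2 (1), EVT 3 (1) and STB 5 (3). Extraembryonic Mesoderm against EXMC had 1 with no filter, 1 with RLE, 1 with libraries 26 and 27 and 2 with DESeq2 (0), and Endoderm against EPI had 1 with DESeq2 (0). For the day slope in all cells DESeq2 and library sums gave 1 each and the library code term 2 (0). The EXMC slope had 1 with the code term (0), and the EVT slope had 1 in library sums and 1 with limma-voom (0).

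Leaving out each embryo in turn gave 2 to 3 members in EPI, 0 to 1 in PS and derivative, 1 to 2 in Non-neural ectoderm, 1 to 3 in Mesoderm, 0 to 2 in Endoderm, 3 to 7 in CTB, 1 to 2 in EVT, 1 to 5 in STB, 3 to 5 in EXMC and 3 to 4 in Extraembryonic Mesoderm. A class left with 1 embryo dropped out of the fit, and so out of the mean against which the other classes were set. Non-neural ectoderm was thus not fitted without E22 or E23, Endoderm not without E18 or E21. PS and derivative was not fitted without E16-1 or E16-2. The ranges of these classes and of their pairs do not cover the embryos that carry them. For the pairs it gave 2 to 4 in EVT against CTB, 1 to 4 in STB against CTB, 0 to 1 in Extraembryonic Mesoderm against EXMC, 0 to 0 in Mesoderm against Extraembryonic Mesoderm, 0 to 1 in PS and derivative against EPI, 0 to 0 in Endoderm against EPI and 1 to 3 in Non-neural ectoderm against EPI, with 1 to 1 over the libraries of E22 and 0 to 0 for each of the 5 slopes.

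The values that turned sign were all uncalled. ID2 in EPI was 0.31 with sums of at least 5 cells, and ID2 in STB ran from -0.0461 (without E20) to 1.86 (without E23). BAMBI in Extraembryonic Mesoderm against EXMC was 0.40 in library sums and 0.23 at sums of at least 20 cells, and ran from -0.165 to 0.0313 (without E21) with 1 embryo left out. ID2 at E22 ran from -0.317 (without library 31) to 0.10 (without library 28). In all cells the slope of ID1 was 0.053 without both E16 embryos. That of ID2 was 0.0148 in library sums and 0.0719 without both E16 embryos, and ran from -0.154 (without E23) to 0.0246 (without E25) with 1 embryo left out. That of MSX1 was 0.005 without both E16 embryos and 0.0103 without the embryos of the 2 codes. The slope of ID1 in EXMC was 0.0587 without both E16 embryos, and ran from -0.264 (without E23) to 0.0587 (without E16-2). The cause of these changes was not tested. Classes were compared within embryos, or within libraries at E22, through the block. For the day slopes no paired analysis was possible because each library number belongs to 1 embryo. Too few counts kept ID4 and SMAD6 out of the test at E22, ID4 out of the slopes in CTB, EVT and Extraembryonic Mesoderm, and MSX1 out of the slope in CTB.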
